A study of Mus musculus with 2 samples.

Results

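Expression of 6 genes of the Notch pathway was followed through the vessels and the stroma of the mouse colon and small intestine. They were the ligand genes Jag1 and Dll4, the receptor genes Notch1, Notch2 and Notch4, and the target gene Hey1. They were taken by name, with no threshold on their values, and all 6 were listed in both libraries, among 16381 genes listed in the colon and 18262 in the small intestinal library. The 6 genes and the longer pathway lists used below were chosen with earlier results of these data known. For each gene the level and the share of cells with a transcript were taken in each cell type that the authors had annotated, and the sites of the ligands were compared with those of the receptors.

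Notch receptors are single-pass membrane proteins that are activated by ligands on neighbouring cells. Ligand binding exposes the receptor to ADAM proteases and then to gamma-secretase, and the released intracellular domain joins the DNA-binding protein RBPJ to switch on target genes such as those of the Hes and Hey families. In blood vessels the pathway is known for arterial fate and for restraining sprouting by way of Dll4, and in lymphatic vessels of the gut Dll4 is known for the upkeep of the lacteals.

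The data were single-cell RNA profiles of gut stromal cells (fibroblasts, muscle and vessel cells) from healthy untreated mice, with 1 library from the colon and 1 from the small intestine. After removal of the epithelium, per the labels' protocols, colon was digested for 60 minutes and small intestine for 45 minutes. Live cells without CD45, a marker of blood cells, and without CD326, a marker of epithelium, were then sorted. The labels used here give no strain, age, sex or number of animals, and neither tissue carried a genetic change. With 1 library per tissue there is no replicate check: intervals are 95% and cover counting error only, and tissue, digestion time and library cannot be told apart.

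The colon library held 6018 annotated cells with a median of 6598 UMIs (unique molecular identifiers, each marking 1 captured RNA molecule) and the small intestinal library 9359 cells with a median of 5943. A total of 21 cell barcodes occurred in both libraries, which is 0.349% of the colon cells and 0.224% of the small intestinal cells. Both libraries held 50 or more cells of 6 types, which were CD81- fibroblasts (CD81- FBs, 3631 colon and 2823 small intestinal cells), CD81+ trophocytes (875 and 1913), PDGFRa-high subepithelial myofibroblasts (SEMFs, 1105 and 1109), lymphatic endothelial cells (LECs, 217 and 2498), blood endothelial cells (BECs, 53 and 524) and smooth muscle cells (SMCs, 125 and 468). The colon BECs pooled 45 cells labelled capillary (CapECs), 4 arterial (ArtECs) and 4 venous (VenECs). The endothelial labels fitted their markers: 8 blood endothelial markers summed to 8143 CPM (UMIs of the gene per 1000000 UMIs of the type) in colon BECs and 8429 CPM in small intestinal BECs, against 13.7 to 44.6 CPM in the fibroblast types. In LECs, 7 lymphatic markers summed to 23517 CPM (colon) and 20979 CPM (small intestine). The SMCs carried fibroblast markers as well. There 6 smooth muscle markers summed to 22182 CPM (colon) and 14808 CPM (small intestine), and 6 fibroblast markers to 5997 and 13775 CPM.

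Positions were taken from the GENCODE annotation of the GRCm38 build. Notch1 (chr2:26457903-26516663, minus strand), Jag1 (chr2:137081456-137116644, minus strand) and Dll4 (chr2:119325784-119335962, plus strand) lie on chromosome 2. Notch2 (chr3:98013527-98150361, plus strand) and Hey1 (chr3:8663359-8667256, minus strand) lie on chromosome 3, and Notch4 lies at chr17:34564268-34588503 on the plus strand. RefSeq promoter sequences on GRCm38.p6 were matched for 5 of the 6 genes. The 250 bases before the start site are shown for Dll4 and Notch4, which had the sharpest endothelial pattern, and for Notch2, the member that was lower in blood endothelium. The windows are chr2:119325534-119325783 (Dll4), chr17:34564045-34564294 (Notch4) and chr3:98013288-98013537 (Notch2), all on the plus strand. Capitals mark matches, on either strand, to NGGAAG, a core of the motif of ETS factors, which are transcription factors of the endothelium and of many other cells.
Dll4: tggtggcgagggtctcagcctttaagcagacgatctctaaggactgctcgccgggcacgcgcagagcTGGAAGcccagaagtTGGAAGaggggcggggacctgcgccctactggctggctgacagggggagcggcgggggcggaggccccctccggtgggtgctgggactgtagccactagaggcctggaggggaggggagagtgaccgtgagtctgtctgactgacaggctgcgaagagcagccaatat
Notch4: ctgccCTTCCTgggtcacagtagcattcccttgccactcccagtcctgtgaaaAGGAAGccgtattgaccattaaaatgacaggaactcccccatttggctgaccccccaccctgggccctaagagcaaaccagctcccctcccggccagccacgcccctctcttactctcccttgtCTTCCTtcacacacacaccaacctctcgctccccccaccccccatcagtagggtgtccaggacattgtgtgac
Notch2: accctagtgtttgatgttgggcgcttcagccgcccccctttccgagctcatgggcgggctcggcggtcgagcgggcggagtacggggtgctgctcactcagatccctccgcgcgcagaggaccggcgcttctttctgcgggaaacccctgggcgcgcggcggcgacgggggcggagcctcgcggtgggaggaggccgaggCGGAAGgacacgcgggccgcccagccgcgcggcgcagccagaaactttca
The window of Dll4 held 2 matches, that of Notch4 held 3 and that of Notch2 held 1, and those of Notch1 and Jag1 held 0. Of 27025 mouse promoter windows of the same length, 63.4% held this core, so its presence does not set these genes apart. The RBPJ core TGGGAA, on either strand, was found in none of the 5 windows and in 21.5% of all windows. The AP-1 motif TGANTCA (6.87% of all windows) and the E-box CACGTG (6.05%) were likewise not in the 5 windows.

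Of the ligands, Jag1 was highest in BECs and was also present in LECs and SMCs. Its level was 70.5 CPM (42.4 to 110) in colon BECs and 106 CPM (92.6 to 120) in small intestinal BECs. The next types were LECs and SMCs, at 29.1 and 27.2 CPM (colon) and at 24.9 and 31.4 CPM (small intestine), and their order within a library was not resolved by counting error. The 3 fibroblast types had 2.66 to 9.66 CPM over both libraries. Among them SEMFs exceeded CD81- FBs and these exceeded trophocytes in the small intestine, whereas the colon levels did not differ beyond counting error. The log2 ratio of BECs to the next type was 1.28 (0.37 to 2.15) in the colon and 1.75 (1.39 to 2.13) in the small intestine. Jag1 transcripts were seen in 11.3% (4.27 to 23.0) of colon BECs and in 27.9% (24.1 to 31.9) of small intestinal BECs. Much of the colon value came from few cells: 14 of the 19 UMIs lay in the 4 ArtECs and 8 of them in 1 cell. The colon CapECs, with 4 UMIs in 45 cells, had 17.6 CPM (4.80 to 45.1), so the high level of Jag1 in colon BECs rests on the arterial label.

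Dll4, the ligand best known from sprouting vessels, was an endothelial transcript in both libraries and was shared evenly between lymphatic and blood endothelium. In the colon it reached 143 CPM (121 to 167) in LECs and 133 CPM (93.5 to 185) in BECs. The small intestinal levels were 87.8 CPM (82.4 to 93.5) in LECs and 83.9 CPM (72.2 to 97.0) in BECs. The LECs to BECs log2 ratio held 0 in both libraries, at 0.10 (-0.44 to 0.66) and 0.06 (-0.16 to 0.30). Outside the endothelium, no Dll4 UMI was counted in colon trophocytes, SEMFs or SMCs, which allows up to 0.471, 0.403 and 3.88 CPM (3 counts). All other types of either library with at least 50 cells had at most 0.486 CPM. Dll4 transcripts were seen in 44.7% (38.0 to 51.6) of colon LECs and 29.6% (27.8 to 31.5) of small intestinal LECs. The shares among BECs were 35.8% (23.1 to 50.2) and 25.2% (21.5 to 29.1). LECs held 75.6% of all Dll4 UMIs of the colon library and 83.2% of those of the small intestinal library, since they were the more numerous endothelial cells.

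The receptors separated into 3 patterns. Notch1, the receptor of most Dll4 signals in vessels, was highest in LECs, second in BECs and low elsewhere. Its level was 312 CPM (279 to 347) in colon LECs and 334 CPM (323 to 345) in those of the small intestine. BECs had 141 CPM (99.7 to 193) and 183 CPM (166 to 202), so that LECs exceeded them by a log2 ratio of 1.14 (0.66 to 1.67) and 0.87 (0.72 to 1.02). The 4 remaining types lay between 7.21 and 14.9 CPM over both libraries. A Notch1 transcript was seen in 71.0% (64.4 to 76.9) of colon LECs and 70.7% (68.8 to 72.4) of small intestinal LECs. The shares in BECs were 41.5% (28.1 to 55.9) and 46.8% (42.4 to 51.1).

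Notch4, a receptor described mainly from endothelium, had its highest level in BECs. It had 51.9 CPM (28.4 to 87.1) in colon BECs, from 14 UMIs, and 42.0 CPM (33.8 to 51.5) in small intestinal BECs, from 92 UMIs. LECs came next with 4.69 CPM (1.52 to 11) and 5.26 CPM (4.01 to 6.79). This left BECs above LECs by a log2 ratio of 3.47 (1.91 to 5.29) and 2.99 (2.51 to 3.49). No fibroblast or muscle type exceeded 1.48 CPM, and the order among those types was not resolved. When the levels of the 6 types are summed with equal weight, BECs made up 84.0% of the sum in the colon and 83.5% in the small intestine. Of the UMIs themselves, colon BECs held 20% and the more numerous colon CD81- FBs 45.7%, while small intestinal BECs held 50.8% and LECs 32.6%. Within the colon BECs, all 14 UMIs lay in the CapECs; 0 UMIs in the 4 ArtECs allow up to 162 CPM, so a comparison of these labels was not possible at this depth.

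Notch2 had the opposite distribution. It was counted in fibroblasts, muscle and LECs and was lowest in BECs. In the colon it was highest in trophocytes at 63.1 CPM (57.1 to 69.6), while LECs, CD81- FBs, SMCs and SEMFs at 36.6, 36.2, 27.2 and 27.2 CPM did not differ from their neighbours in that order beyond counting error. In the other library LECs led with 77.1 CPM (72.0 to 82.4), ahead of trophocytes with 66.1 CPM (62.0 to 70.3), a log2 ratio of 0.22 (0.09 to 0.36). SEMFs, CD81- FBs and SMCs followed at 43.8, 43.4 and 37.4 CPM. BECs had 7.42 CPM (0.898 to 26.8; 2 UMIs) in the colon and 10.0 CPM (6.29 to 15.2; 22 UMIs) in the small intestine. Against all other cells of the library this was a log2 ratio of -2.38 (-5.43 to -0.52) and -2.49 (-3.16 to -1.89). The 5 fibroblast genes Dcn, Col1a1, Col1a2, Col3a1 and Lum stood in colon BECs at 23.6% of their fibroblast level, and at that fraction 2.48 Notch2 UMIs would come with them, against 2 counted. In small intestinal BECs, where these genes stood at 1.27%, 1.44 Notch2 UMIs would come with them, against 22 counted. With lymphatic genes as the reference, chosen after seeing the data and named below, 10.3 would come along, and the count was 2.13 times that. Of the 22 UMIs, 10 lay in a group of 26 BECs led by lymphatic genes, which is described below. In SMCs, Notch2 was at 1.99 (colon) and 1.60 (small intestine) times the count that would come with fibroblast RNA, a reference that is hard to judge in SMCs, as set out below.

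Hey1, a transcriptional repressor and a direct target of Notch signalling, followed the endothelium. It had 63.0 CPM (36.7 to 101) in colon BECs and 53.5 CPM (40.5 to 69.3) in colon LECs, and the ratio of these 2 levels held 0 on the log2 scale (0.24, -0.64 to 1.04). In small intestinal BECs it had 87.1 CPM (75.2 to 100) against 50.6 CPM (46.5 to 54.9) in LECs, a log2 ratio of 0.78 (0.54 to 1.02). The fibroblast types and SMCs had 0 to 5.71 CPM. Without the 1 colon BEC that held the most Hey1 UMIs (5 of 17, an ArtEC), and without the top cell of each other type, colon LECs became the highest type. Hey1 transcripts were seen in 18.9% (9.44 to 32.0) of colon BECs, 21.2% (16.0 to 27.2) of colon LECs, 24.0% (20.4 to 27.9) of small intestinal BECs and 17.5% (16.0 to 19.0) of small intestinal LECs.

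**Figure D1:**
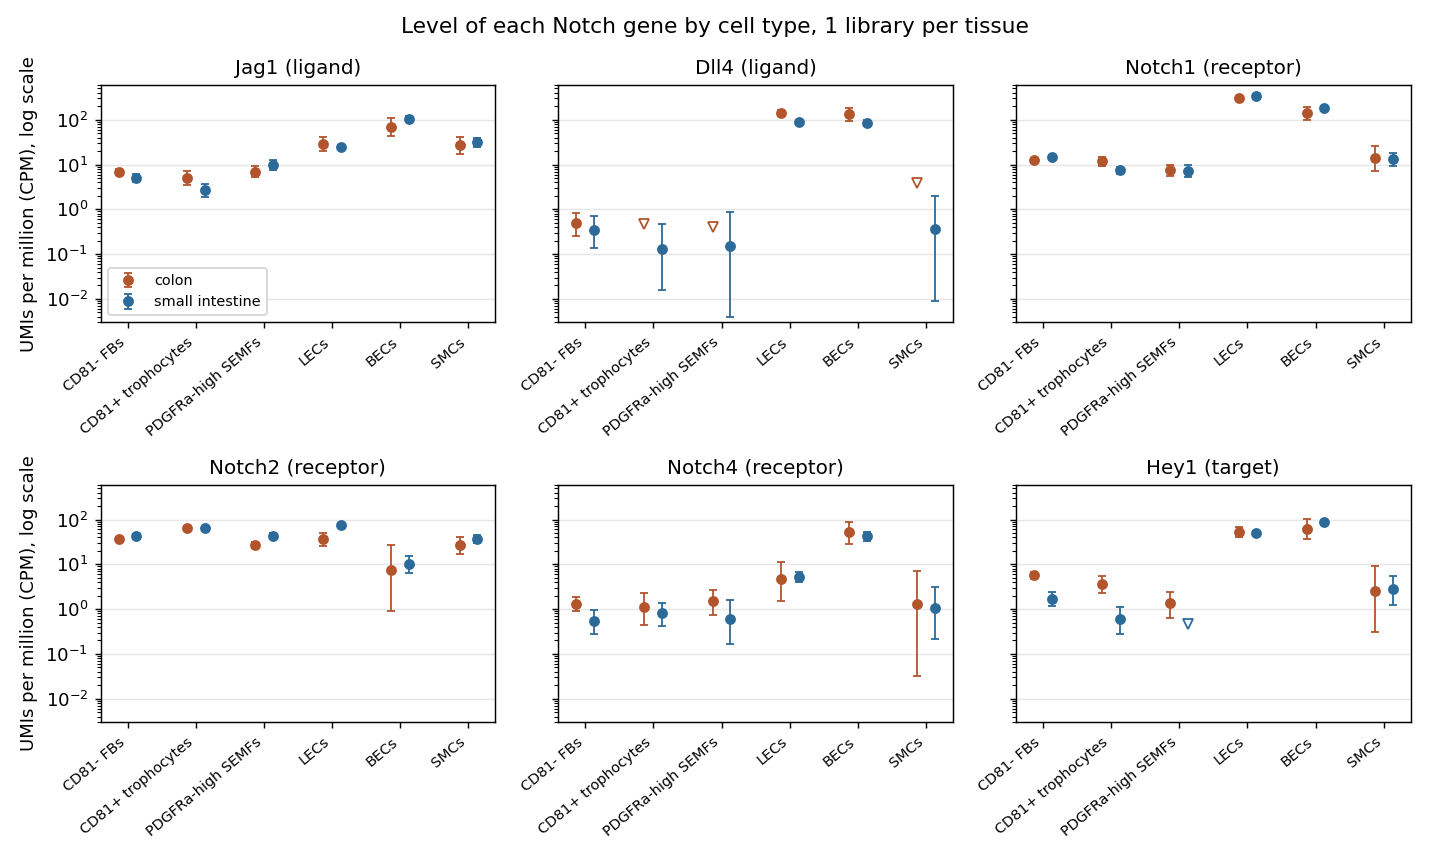
Level of each of the 6 Notch genes (CPM, log axis) in 6 cell types of the colon and small intestinal libraries, 1 library each. Points are levels from summed UMIs, bars are 95% Poisson intervals, and open triangles mark types with no UMI at the level that 3 counts would give. Dll4 and Notch1 are high in LECs and BECs, Notch4 in BECs, and Notch2 is lowest in BECs.

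Shares of cells with a transcript depend on depth and on free RNA. The median depth was 3821 UMIs in colon BECs and 3652 in small intestinal BECs, against 6697 and 6977 in CD81- FBs. Cdh5, the endothelial cadherin, which fibroblasts should lack, was seen in 0.330% of colon and 0.779% of small intestinal CD81- FBs. The Dll4 shares there, 0.275% (0.132 to 0.506) and 0.248% (0.0998 to 0.510), were at or below the Cdh5 shares. Cdh5 is not a matched background for Dll4, however. In BECs Cdh5 had 404 CPM (colon) and 673 CPM (small intestine), against 133 and 83.9 CPM of Dll4. Scaled to the BEC level as set out below, Dll4 was at 1.93 and 2.05 times the count that would come with blood endothelial RNA. With 12 and 7 UMIs, these shares are not read as expression. After each cell was thinned to 2000 UMIs, the Notch1 share was 44.7% in colon LECs and 48.3% in small intestinal LECs, and the Dll4 share was 20.7% and 15.6%. The thinned Notch1 share of small intestinal BECs was 30.3%, and those of Jag1, Dll4 and Hey1 were 18%, 16.9% and 16.2%. For colon BECs the thinned shares of Notch1, Jag1, Dll4 and Hey1 were 18%, 4.0%, 20% and 10%, from 50 cells.

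Set side by side, both ligands and the receptors Notch1 and Notch4 were highest in endothelium, Dll4 and Notch1 in LECs and Jag1 and Notch4 in BECs. Notch2 was highest in endothelium (LECs) in the small intestine only. The highest type was BECs for 3 of the 6 genes (Jag1, Notch4, Hey1) in each library, where 22.4% of all genes of the colon and 18.3% of those of the small intestine had their highest level in BECs. It was LECs for Dll4 and Notch1 in the colon, and for Dll4, Notch1 and Notch2 in the small intestine, where the share over all genes was 19.4% in each library. Notch2 in the colon was highest in trophocytes, like 12.7% of all genes. None of the 6 was highest in CD81- FBs (10.3% of all colon and 9.02% of all small intestinal genes), SEMFs (18% and 30.5%) or SMCs (17.2% and 13.7%), and none in small intestinal trophocytes (9.04%). Past 2-fold higher in BECs than in all other cells of the library were 5 of the 6 in both, against 8.62% of all colon genes and 10.4% of all small intestinal genes. The exception in both was Notch2. Because the 6 genes were chosen with earlier results of these data known, these shares describe them and are not a test. The median log2 ratio of BECs to all other cells over the 6 genes was 3.33 (colon) and 2.60 (small intestine), against 0.43 and -0.03 over all genes. Both ligands and Notch1 were found in both endothelia, the level of Notch4 was highest in BECs, and that of Notch2 was lowest there.

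Ligand and receptor transcripts were also seen in the same cells. Jag1 or Dll4 together with at least 1 of the 3 receptors was found in 740 of 2498 small intestinal LECs (29.6%), where the product of the separate shares gives 707 cells. In small intestinal BECs the count was 139 of 524 cells (26.5%) against 121. The colon counts were 90 of 217 LECs (41.5%) against 85.9, and 13 of 53 BECs (24.5%) against 12.2. All 4 counts lay above the product of the shares by a small margin. In small intestinal BECs, 65 cells held both the ligand Dll4 and the target Hey1, against 31.7 from the product, and 49.2% of the Dll4-positive cells held Hey1 against 15.6% of the Dll4-negative ones. Jag1 and Hey1 were found together in 57 of these BECs against 35.1, Notch4 and Hey1 in 34 against 18.5, and Notch4 and Dll4 in 35 against 19.4. Dll4, Notch4 and Hey1 were all near absent from the venous-like cells among these BECs, which are described next. In small intestinal LECs, Dll4 and Hey1 were together in 133 cells against 129, and in colon BECs in 3 cells against 3.58. These are counts of cells within a library and are not replicates. The small intestinal BECs with both Dll4 and Hey1 had a median of 3665 UMIs, against 3652 for all its BECs. For Jag1 with Hey1 the median was 3430, for Notch4 with Hey1 4090 and for Notch4 with Dll4 4280. Cells with a ligand and a receptor were deeper than their type in all 4 groups. Their medians were 4830 against 4118 UMIs in small intestinal LECs and 4058 against 3652 in small intestinal BECs. The colon medians were 4706 against 4545 in LECs and 4364 against 3821 in BECs. The part of depth in these counts was not tested.

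The blood vessels of the small intestine carried a single label, so its 524 BECs were divided by clustering without any gene of the Notch lists. A group of 197 cells had 6 venous markers at their highest and is called venous-like, 185 cells are capillary-like with 4 capillary markers, and 116 cells are arterial-like with 7 of 8 arterial markers. The remaining 26 cells were led by the lymphatic genes Ccl21a, Reln, Mmrn1 and Lyve1, had a median of 8990 UMIs and were not named. Across the 3 named groups, 5 of the 6 genes had their highest level in the arterial-like cells, although Notch1 there did not differ from the capillary-like cells beyond counting error. With the unnamed group included, it was 4 of 6.

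Jag1 had 340 CPM (282 to 405) in arterial-like cells, 71.0 CPM (50.5 to 97.1) in capillary-like cells and 43.4 CPM (31.6 to 58.0) in venous-like cells. Dll4 had 240 CPM (192 to 296), 126 CPM (97.8 to 159) and 3.86 CPM (1.05 to 9.87), so that it was near its floor in the venous-like group. Notch4 followed the same order with 119, 63.8 and 3.86 CPM. These 3 genes were highest in arterial-like cells and lowest in venous-like cells, and the arterial-like to venous-like log2 ratio was 2.97 (2.46 to 3.49) for Jag1, 5.96 (4.55 to 7.87) for Dll4 and 4.94 (3.48 to 6.88) for Notch4.

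Hey1 gave the widest gap, with 298 CPM (245 to 360) in arterial-like cells, 106 CPM (80.2 to 137) in capillary-like cells and 0.964 CPM (0.0244 to 5.37; 1 UMI) in venous-like cells. Notch1 differed less: it had 268 CPM in arterial-like and 253 CPM in capillary-like cells, a log2 ratio of 0.08 (-0.31 to 0.47), against 83.9 CPM in venous-like cells. Thus the receptor was present in all 3 groups, while Dll4, Notch4 and Hey1 were close to absent from the venous-like one. Notch2, with 1, 1 and 10 UMIs in arterial-like, capillary-like and venous-like cells, was too low to compare. The unnamed group with lymphatic genes had 324 CPM of Notch1 and 41.1 CPM of Notch2. Without this group, the same 3 genes kept their highest level in small intestinal BECs.

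The other ligands and targets of the lists were read in the same groups. Jag2, a further Jagged ligand, had 93.8, 58.3 and 12.5 CPM in arterial-like, capillary-like and venous-like cells, and the first 2 of these did not differ beyond counting error. Dll1 ran the other way, with 50.1 CPM (venous-like), 12.8 CPM (capillary-like) and 11 CPM (arterial-like), a log2 ratio of arterial-like to venous-like cells of -2.18 (-4.11 to -0.74). Of the targets, Nrarp, a feedback inhibitor of the pathway, had 163, 32.8 and 18.3 CPM in that first order and Hes1 had 458, 262 and 139 CPM. Hey2 had 33.1, 14.6 and 0.964 CPM. Together with Hey1, these 4 targets were highest in arterial-like cells, and each exceeded the venous-like level beyond counting error. Heyl had 0 UMIs in all 3 groups. At a finer resolution the arterial-like cells fell into 3 clusters, with 58, 38 and 20 of them in clusters of 59, 38 and 20 cells, and each cluster had 313 to 490 CPM of Jag1, 205 to 264 CPM of Dll4 and 98.0 to 135 CPM of Notch4.

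**Figure D2:**
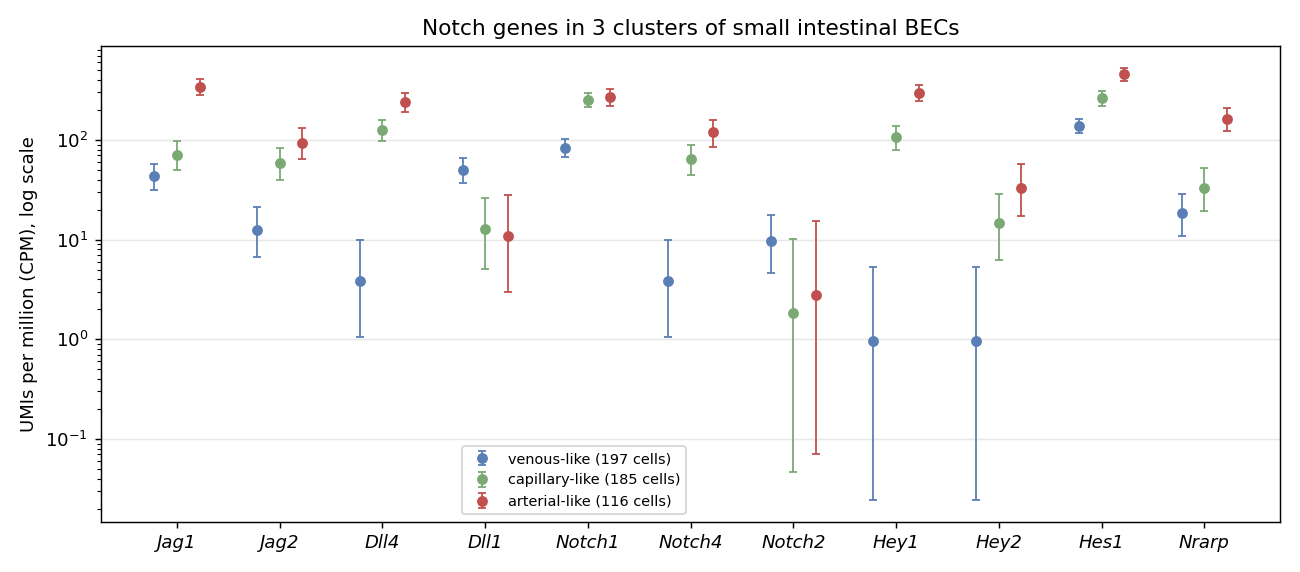
Levels of Notch ligand, receptor and target genes (CPM, log axis) in venous-like, capillary-like and arterial-like clusters of small intestinal BECs, 1 library, with 95% Poisson intervals. Jag1, Dll4, Notch4, Hey1 and Nrarp are highest in the arterial-like cells, whereas Dll1 is highest in the venous-like cells.

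In the fibroblast types, low counts of endothelial genes can come from free RNA in the droplets, so each count was set against the count that would come along with blood endothelial RNA. The 6 genes Pecam1, Cdh5, Kdr, Emcn, Esam and Flt1 stood in the fibroblast types at 0.139% to 0.667% of their BEC level. At these fractions Dll4 was at 0 to 2.05 times the count that would come along, with 12 UMIs counted in 3631 colon CD81- FBs against 6.20. Notch1 and Jag1 exceeded that count by 10.7 to 51.6 times in all 3 fibroblast types of both libraries. Notch1 had 317 UMIs in colon CD81- FBs against 6.55, and 300 UMIs in small intestinal CD81- FBs against 7.46. Notch4 was at 3.17 to 13.7 times, from 4 to 32 UMIs per type. Hey1 was at 4.96 to 48.1 times in 5 of the 6 fibroblast groups, and no UMI was counted in small intestinal SEMFs.

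With lymphatic genes as the reference instead, an alternative chosen after seeing the data, the 6 genes Mmrn1, Lyve1, Flt4, Prox1, Reln and Ccl21a stood in the fibroblast types at 0.0399% to 0.273% of their LEC level. Single genes spread here too, from 0.0726% (Lyve1) to 0.664% (Prox1) in colon trophocytes. Notch1 was then at 8.09 to 60.6 times the count that would come along, and Dll4 at 0 to 4.88 times. Dll4 thus gave the lowest ratios of the 6 genes against both references, apart from Hey1 in small intestinal SEMFs. SMCs are harder to judge in this way, because Esam stood in colon SMCs at 23.3% of its BEC level while Cdh5, Kdr and Emcn were at 0. The fibroblast reference is no clean measure of free RNA there either. In colon SMCs Col3a1 stood at 73.3% and Dcn at 17.6% of their fibroblast level, and Col3a1 was seen in 100% of the cells. Jag1 in SMCs, with 21 UMIs in the colon and 88 in the small intestine, was at 21.8 and 14.2 times the count from blood endothelial RNA and at 11.8 and 14.2 times that from fibroblast RNA. Notch1 in SMCs was at 5.72 and 3.45 times the count from blood endothelial RNA and at 3.48 and 2.65 times that from fibroblast RNA.

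**Figure D3:**
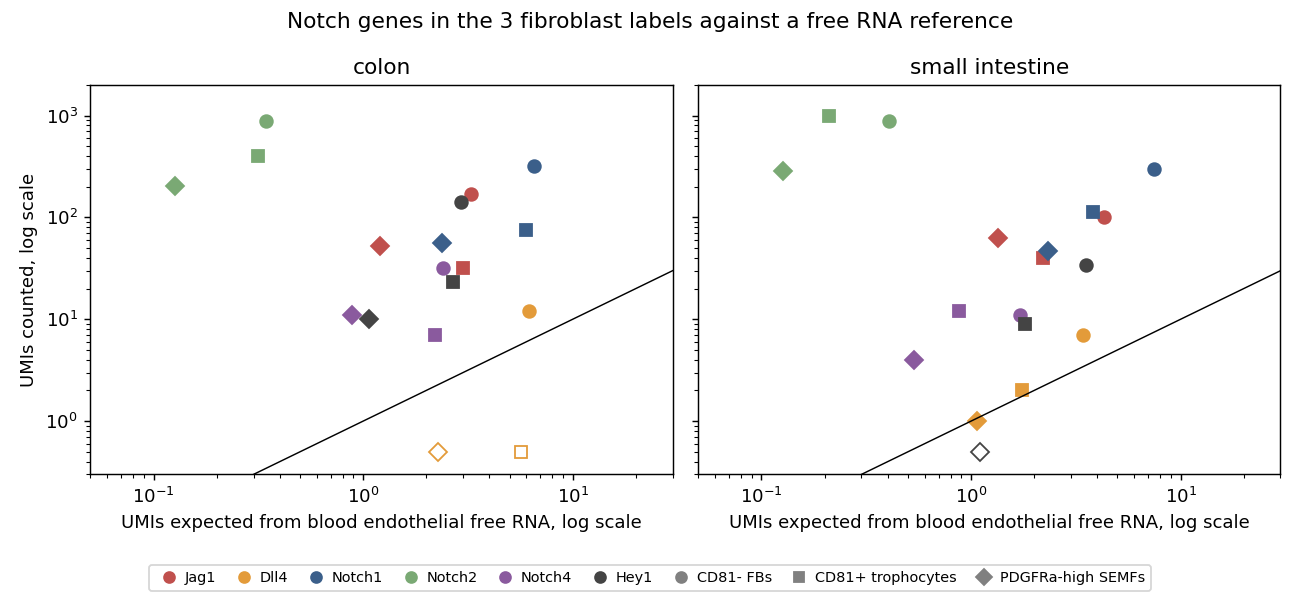
UMIs counted (y axis, log scale) against UMIs that would come along with blood endothelial free RNA (x axis, log scale) for the 6 Notch genes in 3 fibroblast types of each library. Colours are genes, symbols are types, the line marks equality and open symbols are counts of 0 drawn at 0.5. Dll4 lies near or under the line and the other genes above it, except Hey1 in small intestinal SEMFs.

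The tissues were then compared within each type, as the ratio of colon to small intestine. A gene is counted as different where it was past 2-fold and its interval excluded 0 on the log2 scale. Across genes with at least 100 UMIs the median log2 ratio was not 0 but lay between -0.33 and -0.11, depending on the type, and ratios relative to it are given where they matter. In BECs 0 of 6 passed, against 15.1% of all genes, and in SMCs 0 of the 4 with enough UMIs, against 19.6%. By direction, 6.07% of BEC genes and 4.98% of SMC genes were higher in the colon. In LECs 1 of 6 passed, against 17.0% of all genes, of which 6.17% were higher in the colon and 10.8% in the small intestine. Notch2 had 36.6 CPM in colon LECs against 77.1 CPM, a log2 ratio of -1.07 (-1.58 to -0.61), which was -0.81 relative to the median gene and then under 2-fold. Dll4 was higher in the colon by less than 2-fold in both endothelia, at 0.70 (0.44 to 0.95) in LECs and 0.67 (0.11 to 1.19) in BECs.

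The BECs of the tissues were not matched for vessel type, since 45 of the 53 colon cells were capillary by label. In a comparison added after seeing the data, colon CapECs were set against the capillary-like cells of the small intestine. Jag1 was then lower in the colon, with 17.6 against 71.0 CPM (4 and 39 UMIs) and a log2 ratio of -2.01 (-3.96 to -0.54). Hey1 was lower as well, with 48.4 against 106 CPM and a ratio of -1.13 (-2.20 to -0.18). Dll4 and Notch4 were at 0.12 (-0.54 to 0.75) and -0.05 (-1.06 to 0.88), and Notch1 was at -0.85 (-1.45 to -0.28). Over all BECs, the fibroblast markers, 6 of 6 detected in each library, summed to 4049 CPM (colon) and 391 CPM (small intestine), and their part in these ratios was not tested.

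In the fibroblasts, Hey1 passed and was higher in the colon in all 3 types, and Notch4 passed in CD81- FBs. In CD81- FBs its colon level was 5.71 CPM (4.80 to 6.73), against 1.69 CPM (1.17 to 2.36). The log2 ratio was 1.76 (1.21 to 2.34), and 1.98 relative to the median gene. Hey1 and Notch4 made 2 of 6 genes past 2-fold and higher in the colon in this type, against 9.48% of all genes. Notch4 had 1.30 against 0.546 CPM (32 and 11 UMIs), a log2 ratio of 1.25 (0.22 to 2.38). In trophocytes Hey1 had 3.61 against 0.599 CPM (23 and 9 UMIs) and a log2 ratio of 2.59 (1.43 to 3.89), as 1 of the 5 genes tested, against 8.36% of all genes. None of these 5 was past 2-fold in the other direction, against 8.33%. In SEMFs Hey1 had 10 UMIs in the colon, 3 of them in 1 cell, and 0 in the small intestine. With the 0 set to 3 counts its log2 ratio was 1.55, a value that leaves out the counting error of the 10 UMIs. It passed as 1 of 5, against 8.28%, with 0 of 5 in the other direction, against 15.8%. The levels behind these ratios are low, 0 to 5.71 CPM. As differences of the deposited mean natural log values, converted to log2 units, they are 0.01 to 0.03.

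Of the target list, Hes1, Hey1, Hey2, Heyl and Nrarp were listed, and 5 of 5 were past 2-fold and higher in colon CD81- FBs, where 9.48% of all genes were, with a median log2 ratio of 2.46 against -0.19 over all genes. Hey2 (38 UMIs in the colon) and Nrarp (14) had only 1 UMI each in small intestinal CD81- FBs, so they had enough UMIs only through the colon. The colon level of Nrarp, 0.567 CPM, was near that of Dll4 in these cells, which was not read as expression. Of the targets with enough UMIs, 3 of 4 passed in trophocytes (8.36% of all genes), 2 of 3 in SEMFs (8.28%) and 1 of 2 in SMCs (4.98%), and none was higher in the small intestine in any of the 6 types. Hes1, a repressor that many signals besides Notch can induce, had 751 CPM in colon and 161 CPM in small intestinal CD81- FBs, a log2 ratio of 2.22 (2.17 to 2.27). Its log2 ratio was 2.15 in trophocytes, 2.61 in SEMFs, 2.25 in SMCs and 1.76 in BECs, but 0.53 (0.41 to 0.64) in LECs. Heyl, a further Hey family repressor, had 6.56 against 1.19 CPM in CD81- FBs and 11.3 against 1.73 CPM in trophocytes. In LECs 1 of 5 targets passed (6.17% of all genes), Nrarp with 46.0 against 4.28 CPM and a log2 ratio of 3.42 (2.82 to 4.03). In BECs 2 of 4 passed (6.07% of all genes), Hes1 and Nrarp, the latter with 96.4 against 46.5 CPM and a ratio of 1.05 (0.37 to 1.68). Neither Jag1 nor Dll4 passed in any type, although Jag1 in trophocytes was at 1.03 relative to the median gene. Notch1 did not pass either, while Notch2 passed in LECs and Notch4 in CD81- FBs. Digestion ran 60 minutes for the colon and 45 minutes for the small intestine, and time and tissue cannot be told apart in these ratios.

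**Figure D4:**
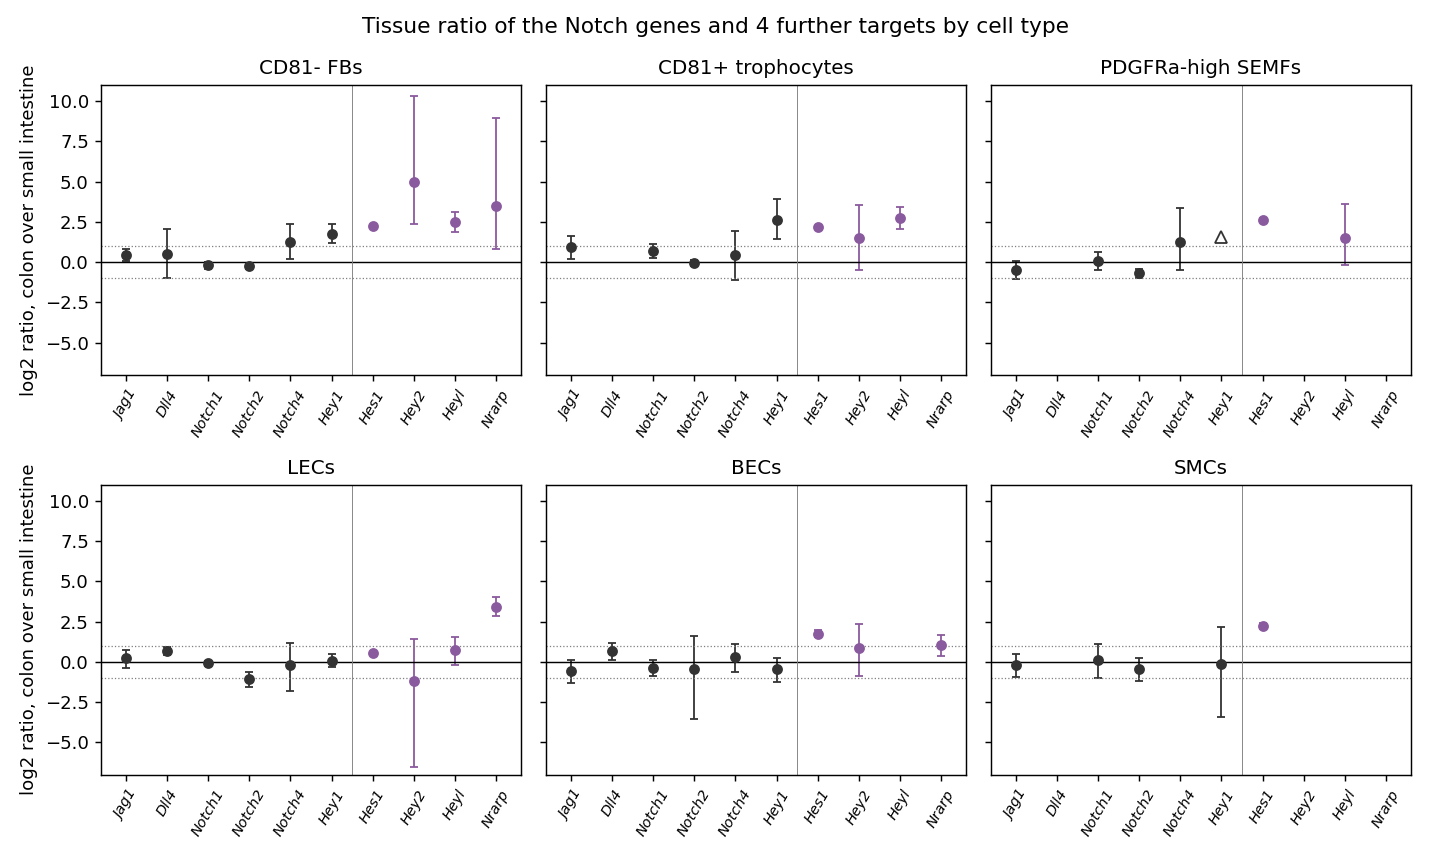
Log2 ratio of colon to small intestine (y axis) for the 6 Notch genes (black) and the further targets Hes1, Hey2, Heyl and Nrarp (purple) in 6 cell types, 1 library per tissue. Bars are exact 95% counting intervals, dotted lines mark 2-fold, the open triangle is a lower bound, and genes with under 10 UMIs in both libraries together or with no ratio are not drawn. Hes1 lies above the upper dotted line in every type except LECs.

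Beyond the ligands, receptors and targets, the wider pathway was read from a list of 54 genes, of which 49 were listed in both libraries. Of the nuclear complex, 0 of 8 genes, and of the cleavage machinery, 0 of 9 were past 2-fold higher in BECs than in other cells in either library, where 8.62% (colon) and 10.4% (small intestine) of all genes were. Of the Fringe enzymes, which modify the receptors' sugars, Mfng had 34.7 CPM in small intestinal BECs and under 1 CPM in the other 5 types, and Lfng was found in LECs (22.5 CPM colon, 31.4 CPM small intestine) and BECs (14.8 and 20.1 CPM). Of the genes of ligand endocytosis and turnover, 5 of 11 were past 2-fold and lower in colon CD81- FBs, 4 of 10 in LECs, 3 of 9 in BECs and 4 of 11 in SMCs, against 11.4%, 10.8%, 9.08% and 14.6% of all genes. In trophocytes it was 0 of 11 (8.33%) and in SEMFs 1 of 9 (15.8%). Relative to the median gene, Numb (-0.84), Dtx4 (-0.87) and Fbxw7 (-0.80) in CD81- FBs were under 2-fold. They included Itch, a ubiquitin ligase that targets Notch, with 57.4 against 128 CPM in CD81- FBs and 29.7 against 102 CPM in BECs. Relative to the median gene its log2 ratio was -0.94 in CD81- FBs, under 2-fold, and -1.48 in BECs. Numb, an inhibitor of the pathway, had 109 against 315 CPM in LECs. Maml2, a co-activator of the Notch and RBPJ complex, was past 2-fold and lower in the colon in all 6 types, with log2 ratios of -2.32 (CD81- FBs) to -1.04 (trophocytes). Relative to the median gene it stayed past 2-fold in CD81- FBs (-2.09) and BECs (-1.36) and was between -0.98 and -0.84 in the other 4.

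A ligand difference outside the 6 genes was seen in SEMFs, the fibroblasts under the epithelium. Dll1, a Delta ligand, had 13.9 CPM there in the colon against 1.53 CPM (103 and 10 UMIs), a log2 ratio of 3.18 (2.24 to 4.28). In CD81- FBs its level was 8.94 against 9.57 CPM, a ratio of -0.10 (-0.38 to 0.19).

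Genes most like each member were ranked by Pearson's r of log2(CPM + 10) over the 12 levels, 6 types in 2 libraries, among 9539 genes with at least 20 CPM in 1 of them. Nearest to Notch4 were Pdgfb (0.997), a growth factor of endothelium, the adhesion receptor gene Adgrg1 (0.994) and the ligand gene Jag2 (0.993), all highest in BECs in both libraries. Nearest to Dll4 were Rgs16 (0.998), Podxl (0.995) and Clic5 (0.994), and nearest to Hey1 were Als2cl (0.991), Rasip1 (0.990) and Abi3 (0.990). Notch1 was most like Elk3 (0.992), an ETS family factor, Slfn3 (0.992) and Mall (0.991), all highest in LECs. Jag1 was most like Mcam (0.954), Tinagl1 (0.952) and Esam (0.948), which are shared by vessels and muscle. Notch2 was most like Raph1 (0.904), Map7 (0.903) and Dtnbp1 (0.897). Among the members, Dll4 and Notch1 had an r of 0.97 and Dll4 and Hey1 of 0.97, while Notch2 and Notch4 had -0.80. The 12 levels come from 2 libraries and share their depth, and the values describe these levels only.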

How the data were processed

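Per the labels' protocols, sorted stromal cells of the mouse colon and small intestine were profiled with the 10x Genomics 3' version 3.1 kit, with 1 library per tissue and about 16000 cells loaded. The authors deposited raw counts of UMIs per gene and cell, natural log values and a cell type label per cell. A check on the deposited files showed that these natural log values are ln(1 + 10000 x UMIs of the gene / UMIs of the cell). Per the submitters' processing notes, Cell Ranger 7.1.0, Seurat 4 and the mm10 build were used, with no role given. How the labels were made is not given in the sources used here.

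Raw counts were summed per library and type and written as CPM, with exact Poisson intervals. Shares carry exact Clopper-Pearson intervals, and ratios carry exact conditional binomial intervals, all at 95%. They cover counting error only, and a count of 0 was set to 3 counts for bounds and for ratios. A gene counted as different at 2-fold with an interval excluding 0, among genes whose UMIs summed to 10 or more over the libraries. No p-value was computed. Total depth was 40684070 UMIs (colon) and 58134526 UMIs (small intestine). The colon's capillary, arterial and venous labels were pooled as BECs, and types under 50 cells entered no comparison.

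Small intestinal BECs were clustered with scanpy 1.11.5 (2000 variable genes without the Notch lists, 20 components, 15 neighbours, Leiden resolution 0.5), and groups were named from fixed markers. Scrublet marked 3 of 6018 colon cells, too few for its call to be used there, and 95 of 9359 small intestinal cells. Doublets were kept, and an alternative dropped the 6% with the highest scores. The interval script was tested on simulated counts. Alternatives changed the weighting, scale, totals, depth, threshold, cluster resolution and cells used. Named genes were the 6 members, up to 4 genes of each pathway list by level, fixed ligands and targets, the 3 genes most like each member, and markers. Members and lists were chosen with earlier results of these data known. Of the listed symbols, 98.7% (colon) and 98.4% (small intestine) matched GENCODE names.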

Additional observations from a re-analysis of the deposited data

Results flagged for a closer look

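Notch3, the receptor of mural cells, had opposite tissue ratios in trophocytes and in SEMFs. Colon trophocytes held 11 UMIs against 3, a log2 ratio of colon to small intestine of 3.11 (1.19 to 5.59). SEMFs held 1 against 7, a log2 ratio of -3.0 (-8.49 to -0.04). With under 10 UMIs over both libraries, Notch3 in SEMFs was not among the genes that could count as different. The ratios differ by 6.11 on the log2 scale. With 1 library per tissue the difference was not tested, and the counts behind it are few.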

How the results depend on the processing

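No ratio between the tissues that was past 2-fold changed sign under the alternatives run. Some that did not pass did, such as Notch2 (-0.44 to 2.27) and Notch4 (0.31 to -0.05) in BECs between capillary groups. The counts of genes with their highest level in BECs stayed at 2 to 4 of 6 in the colon and 3 to 4 of 6 in the small intestine. The number of the 6 genes past 2-fold between the tissues moved as follows. With every cell weighted equally it was 0 in SEMFs and 1 in SMCs. On the mean natural log values it was 0 in CD81- FBs, trophocytes, SEMFs and LECs. A gene seen in few cells has a mean too low to differ by 2-fold on that scale. The genes that had passed in these types could not have passed there, so this setting does not check them. Relative to the median gene it was 2 in trophocytes (Jag1 and Hey1) and 0 in LECs. At 1.5-fold it was 3 in trophocytes, 2 in SEMFs, 2 in LECs and 1 in BECs (Dll4), and at 4-fold 0 in CD81- FBs, SEMFs and LECs. Without the top cell of each gene it was 1 in BECs (Jag1). With colon cells restricted to the 1751 with Y-linked and no Xist UMIs it was 2 in trophocytes, and with the 2700 of the reverse kind it was 1 in CD81- FBs and 0 in LECs. Between capillary groups it was 2 (Jag1 and Hey1). The Xist and capillary alternatives, and all those for the targets, were chosen after seeing the data.

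The number of targets past 2-fold and higher in the colon moved too. On the natural log values it was 1 (Hes1) in CD81- FBs, trophocytes, SEMFs and BECs, and 0 in LECs. The same limit of that scale applies to targets seen in few cells. In BECs it was 1 without likely doublets, without the top cell and with the Xist cells, and 0 at 4-fold. In SEMFs it was 1 with the Y-linked cells and at 4-fold. In LECs it was 2 relative to the median gene and with the Xist cells. Of the 4 genes highest in the arterial-like cluster among all 4 clusters, 0 were highest at resolution 1.0 in the cluster with most arterial markers (38 cells), and 3 of the genes most like a member were also among the 3 nearest by Spearman's rho. Except where named, the cause was not tested.

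The 53 colon BECs limit every colon value for blood vessels, where 3 counts equal 11.1 CPM. No paired analysis was possible because each tissue had 1 library.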

Other observations

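Mural cells were too few for a comparison. The 8 cells labelled pericytes, all from the colon, had 548 CPM (330 to 856) of Notch3, from 19 UMIs, against 0 to 7.42 CPM in the 6 compared types of that library. They also had 202 CPM (81.2 to 416) of the target Heyl and 1384 CPM (1021 to 1835) of Hes1, and 115 CPM (31.4 to 295; 4 UMIs) of Notch1, while Notch2, Notch4 and Dll4 had 0 UMIs, which allows up to 86.5 CPM each. In the small intestine, SMCs were the highest type for Notch3 with 7.48 CPM (4.63 to 11.4). The 6 pericyte markers, with Notch3 among them, summed to 1273 CPM in these SMCs and to 1243 CPM in SEMFs of that library.

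Subunits of gamma-secretase had a lymphatic pattern. Psen2, a catalytic subunit, had 181 CPM (156 to 209) in colon LECs and 120 CPM (114 to 127) in small intestinal LECs, above the next type by a log2 ratio of 1.99 (1.76 to 2.21) and 1.63 (1.32 to 1.97). Aph1b had 85.4 CPM (68.8 to 105) and 90.5 CPM (85.0 to 96.2) in LECs, above the next type by 2.60 (2.18 to 3.02) and 2.44 (2.15 to 2.74). Egfl7, a secreted endothelial protein that binds Notch receptors, was high in both endothelia, with 447 and 608 CPM in colon LECs and BECs and 704 and 826 CPM in those of the small intestine. Dner and Cntn1, neural non-canonical ligands, were past 2-fold higher in CD81- FBs of the colon than of the small intestine, with 35.2 against 6.30 CPM and 15.9 against 0.298 CPM. These were 2 of the 3 genes tested from their list, against 9.48% of all genes. The other, Egfl7, was past 2-fold lower in the colon there (0.850 against 1.79 CPM), like 11.4% of all genes. In trophocytes Dner was lower in the colon, with 41.5 against 61.6 CPM and a log2 ratio of -0.57 (-0.77 to -0.37).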
